A study of Mus musculus with 20 samples.

Results

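The miR-17-92 and miR-106b-25 clusters were followed in mouse skin at 4 stages of chemical skin carcinogenesis. Members were taken by name from the deposited small RNA count table: every mature miRNA named miR-17, miR-18a, miR-19a, miR-19b, miR-20a, miR-92a, miR-106b, miR-93 or miR-25, any arm or copy. This gave 20 of 1137 mature miRNAs in a table of 2127 small RNA features: 12 arms of miR-17-92, 6 arms of miR-106b-25 and 2 arms that belong to X-linked copies. Of these, 9 are the leading arms of the 9 hairpins, more abundant than their partners on average over the 20 libraries. The mice were FVB/N, a strain often used in skin tumour work, with age and sex not given, and each of the 4 groups held 5 libraries: healthy skin treated with acetone, the solvent (libraries 2, 3, 4, 5 and 7), and, after DMBA and PMA, hyperplastic skin (libraries 1, 2, 5, 7 and 8), papillomas, which are benign tumours (libraries 1, 3, 4, 5 and 6), and cutaneous squamous cell carcinomas, cSCC (libraries 1, 2, 3, 4 and 6). DMBA is a mutagen that starts tumours and PMA a phorbol ester that promotes them. Because healthy skin had not been given the carcinogens, what the treatment does and what the lesion does cannot be told apart in any contrast with it. Whether every biopsy is from a different mouse is not stated in the labels, and a p-value here speaks of sample-to-sample spread, which may be technical.

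The miR-17-92 cluster is a polycistron: 6 hairpins lie in a single primary transcript, Mir17hg, and are cut from it one by one before each gives a mature strand that guides Argonaute to messenger RNAs. Its transcription is activated by Myc, it is amplified in human lymphomas and its miRNAs restrain cell cycle inhibitors and the death factor Bim. The miR-106b-25 cluster is a paralogue with 3 hairpins in an intron of Mcm7, a DNA replication licensing gene under E2F control. A further paralogue, miR-106a-363, lies on the X chromosome.

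In the files' build, mm9, the 12 arms of miR-17-92 span chr14:115442905-115443719 and the 6 arms of miR-106b-25 span chr5:138606559-138607036, as the deposited table lists them. RefSeq places the 6 hairpins of miR-17-92 within 836 bases of chromosome 14 on the plus strand (GRCm38.p6, chr14:115043671-115044506), and the 3 hairpins of miR-106b-25 within 498 bases of chromosome 5 on the minus strand (GRCm38.p6, chr5:138165321-138165818). RefSeq held the sequence of 19 of the 20 members, miR-19a-5p being the exception. The mature sequences of the leading arms are shown because their shared seeds tie the 2 clusters together and because near-identical arms limit what a read count can tell apart. Capitals mark the seed, bases 2 to 8, which sets the targets.
miR-17-5p: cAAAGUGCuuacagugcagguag
miR-20a-5p: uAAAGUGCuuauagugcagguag
miR-93-5p: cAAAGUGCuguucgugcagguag
miR-106b-5p: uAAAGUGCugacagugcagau
miR-18a-5p: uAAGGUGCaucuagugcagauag
miR-19a-3p: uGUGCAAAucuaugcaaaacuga
miR-19b-3p: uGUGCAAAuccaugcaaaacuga
miR-92a-3p: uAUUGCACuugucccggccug
miR-25-3p: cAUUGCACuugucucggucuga
miR-106a-5p (X chromosome, not a member): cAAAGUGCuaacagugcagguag

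The seed AAAGUGC is shared by miR-17-5p and miR-20a-5p of the first cluster with miR-93-5p and miR-106b-5p of the second. The seed AUUGCAC is shared by miR-92a-3p and miR-25-3p. miR-19a-3p and miR-19b-3p have the seed GUGCAAA and no counterpart in miR-106b-25. miR-17-5p differs from the X-linked miR-106a-5p by 1 base, miR-19a-3p from miR-19b-3p by 1 base, miR-17-5p from miR-20a-5p by 2 bases and miR-92a-3p from miR-25-3p by 4 single-base changes. The mature miR-19b-3p and miR-92a-3p are encoded identically on chromosome 14 and on the X chromosome, so their counts are the sum of both loci. How reads that match several miRNAs were counted is not given in the sources used here, so the split between miR-17-5p, miR-20a-5p and miR-106a-5p and between miR-19a-3p and miR-19b-3p is uncertain.

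Levels are in CPM, the usual count rate per library, on a linear scale. The mature miRNA count of each library ran from 1060615 in papilloma 6 to 6904298 in hyperplastic 7. Levels are relative to the summed count of the 293 miRNAs that averaged at least 50 CPM of mature counts, scaled by edgeR's TMM factors from these. A principal component analysis of these 293 placed hyperplastic 7 and 8 among the healthy libraries, at -13.21 and -12.25 on the first component against -13.36 to -7.57 for healthy skin, while hyperplastic 1, 2 and 5 lay at -6.33, -5.69 and -5.42. Pairwise member fold changes and calls with hyperplastic skin, where printed from the fit on 293 miRNAs, are therefore given with and without these 2 libraries. The test across the 4 groups and all other values of hyperplastic skin rest on all 5. Leaving them out was not planned. The 293 include the tested members, so values without these 2 libraries are not independent of that choice.

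A second scaling is set beside the first for calls of members and for marker calls against healthy skin. With edgeR's default filter (filterByExpr), 850 miRNAs are tested and set the TMM factors. Among all mature miRNAs, 590 averaged at most 20 counts, and their summed count was similar in every group (3698 ± 350, 4732 ± 1370, 4649 ± 530 and 4637 ± 913 in healthy skin, hyperplastic skin, papilloma and cSCC; SD, n = 5 each), although the mean mature count was 1833000 in papillomas and 4023000 in healthy skin. In CPM of mature counts, without TMM factors, they thus made up 947.6 ± 185 in healthy skin, 1106 ± 366 in hyperplastic skin, 2894 ± 1390 in papillomas and 2017 ± 534 in cSCC. With these miRNAs in the factors, the median log2 fold change of the 293 moved by -0.71 for cSCC and by -0.64 for papilloma against healthy skin, but by -0.08 for hyperplastic against healthy skin and -0.07 for cSCC against papilloma. A fold change against healthy skin therefore depends on the scaling, whereas a ratio of 2 miRNAs within a library does not.

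Summed over its 6 leading arms, miR-17-92 averaged more in both tumour groups than in both skin groups, while the TMM-scaled means of miR-106b-25 differed little beside their spread. The miR-17-92 sum was 13380 ± 3090 CPM in healthy skin, 16660 ± 4410 in hyperplastic skin, 24860 ± 3610 in papillomas and 30050 ± 10900 in cSCC (mean ± SD, n = 5 each). The papillomas, 20300 to 30050 CPM, all lay above the healthy libraries, 10160 to 18360 CPM. Among carcinomas, cSCC 6 had 14600 CPM, inside the healthy range, and cSCC 2 had 45080 CPM, the highest of all 20 libraries. The sum over the 3 leading arms of miR-106b-25 was 3795 ± 380 CPM in healthy skin, 4323 ± 1290 in hyperplastic skin, 4222 ± 464 in papillomas and 3921 ± 197 in cSCC. As a plain share of mature counts, without TMM factors, miR-17-92 made up 1.40 ± 0.400% in healthy skin, 1.93 ± 0.632% in hyperplastic skin, 2.54 ± 0.294% in papillomas and 2.38 ± 0.831% in cSCC, so the order of the 2 tumour groups turns round with the scaling. On that scale miR-106b-25 made up 0.282 to 0.365% in cSCC and 0.37 to 0.519% in papillomas, without overlap. In these biopsies, which hold many cell types, more cells with the cluster and more of it per cell cannot be told apart.

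The quotient of the 2 sums, taken on counts and so free of any scaling factor, carried the same pattern. There were 3.52 ± 0.704 counts of miR-17-92 for each count of miR-106b-25 in healthy skin, 3.93 ± 0.864 in hyperplastic skin, 5.90 ± 0.720 in papillomas and 7.70 ± 3.0 in cSCC (SD, n = 5 each). Papillomas, at 5.19 to 6.89, did not overlap healthy skin, at 2.85 to 4.69. The carcinomas overlapped it through cSCC 6 alone, at 3.82, the other 4 lying between 6.89 and 12.2.

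**Figure D1:**
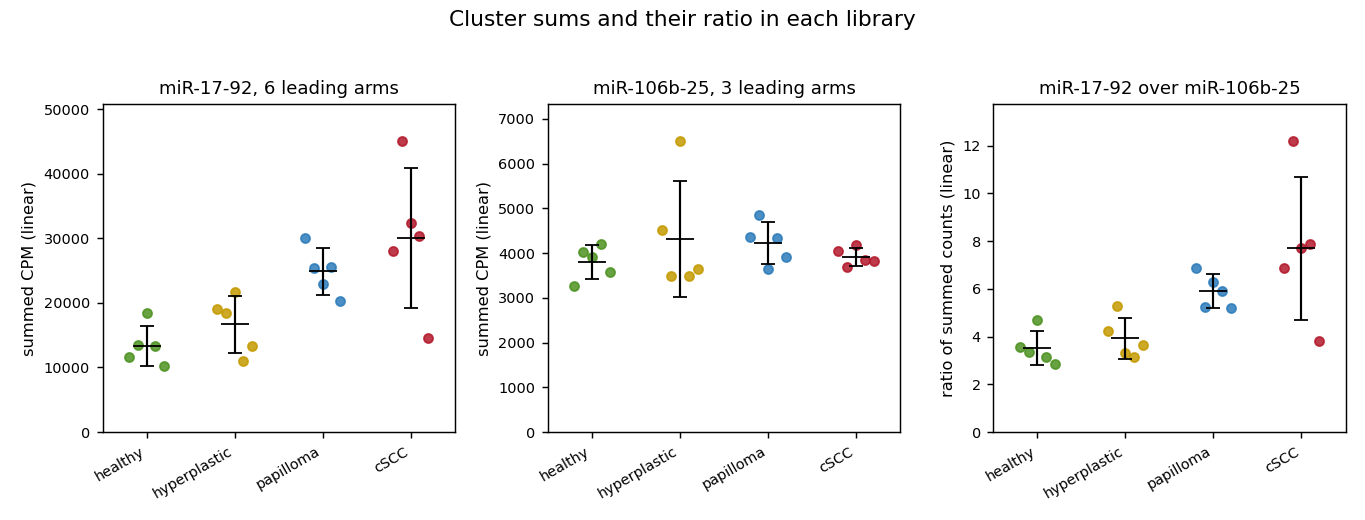
Summed CPM of the leading arms of each cluster and the ratio of their summed counts, all on linear axes, in each library (points) with mean and SD (bars) for the 4 groups of 5. The papillomas sit at 20300 to 30050 CPM of miR-17-92, above every healthy library, while miR-106b-25 averages 3795 to 4323 CPM in the 4 groups; cSCC 6 stands at 14600 CPM.

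Within miR-17-92 the strands differed widely in abundance. In cSCC the shares of the cluster's leading-arm counts were 35.0 ± 3.53% for miR-17-5p, 31.9 ± 4.93% for miR-19b-3p, 17.3 ± 1.02% for miR-92a-3p, 7.45 ± 2.05% for miR-18a-5p, 5.00 ± 0.740% for miR-20a-5p and 3.36 ± 1.02% for miR-19a-3p (SD, n = 5). In healthy skin miR-17-5p made up 35.4 ± 7.44%, miR-19b-3p 32.9 ± 5.83%, miR-92a-3p 19.6 ± 1.54%, miR-20a-5p 5.73 ± 0.988%, miR-18a-5p 3.88 ± 2.65% and miR-19a-3p 2.47 ± 1.1% (SD, n = 5). There the neighbours miR-17-5p and miR-19b-3p did not differ beyond their spread. miR-18a-5p overlapped both miR-20a-5p above it and miR-19a-3p after it, although miR-20a-5p (4.71 to 7.33%) and miR-19a-3p (1.33 to 3.65%) did not overlap each other. Small RNA libraries recover different sequences with different efficiency, so these shares describe read counts, not molecules.

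mmu-miR-17-5p, a founder of the seed family that restrains cell cycle inhibitors, was the most abundant member. It stood at 2739, 4739, 6624, 5832 and 3884 CPM in healthy skin and at 4935, 4787, 8590, 3243 and 4048 CPM in hyperplastic skin, in the order of library numbers given above. In papillomas it stood at 10300, 8161, 7288, 9297 and 6493 CPM, and in cSCC at 9156, 13700, 12720, 10720 and 5405 CPM. Papilloma 6 and cSCC 6 reached into the healthy range, and all other tumours lay above it.

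mmu-miR-19b-3p, known in mouse lymphoma models as an oncogenic arm of the cluster, had 4947, 4386, 5418, 3623 and 3314 CPM in healthy skin and 6445, 6259, 6247, 3892 and 5046 CPM in hyperplastic skin. Papillomas had 8424, 6293, 6631, 6237 and 6499 CPM, and cSCC 10290, 16800, 8772, 9378 and 3987 CPM. All papillomas exceeded the healthy libraries, and cSCC 6 again fell among them. Its sister miR-19a-3p, with the same seed, had 424.8, 278.7, 665.1, 177.2 and 168.8 CPM in healthy skin, 842.7, 971.8, 729.3, 334.6 and 365.3 CPM in hyperplastic skin, 1190, 964.2, 1098, 999.5 and 969.1 CPM in papillomas and 989.8, 2221, 696.8, 870.9 and 480.4 CPM in cSCC. The papillomas were tightly grouped and did not overlap healthy skin.

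mmu-miR-92a-3p, the last strand of the cluster and a repressor of integrin alpha 5 in endothelium, had 2293, 2492, 3323, 2639 and 2240 CPM in healthy skin and 4129, 3761, 3294, 2721 and 2609 CPM in hyperplastic skin. It reached 6049, 5811, 5569, 5315 and 4805 CPM in papillomas, which overlapped neither skin group, and 4450, 7916, 6047, 5142 and 2540 CPM in cSCC. Only cSCC 6 among the tumours lay within the healthy range.

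mmu-miR-18a-5p, whose seed is its own among the 9 leading arms, was the most variable in healthy skin: 563.9, 586.8, 1380, 252.2 and 78.43 CPM. Hyperplastic skin had 2296, 2132, 1027, 508.4 and 572.7 CPM, papillomas 2635, 2918, 2186, 2031 and 1030 CPM, and cSCC 1819, 2233, 2147, 2938 and 1380 CPM. miR-20a-5p, the sister of miR-17-5p, ran from 478.9 to 987.3 CPM with a median of 758.5 in healthy skin, from 255.6 to 1718 (median 470.5) in hyperplastic skin, from 186.7 to 1651 (median 1316) in papillomas and from 806.3 to 2210 (median 1260) in cSCC. Its papilloma values reached past the healthy range on both sides.

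**Figure D2:**
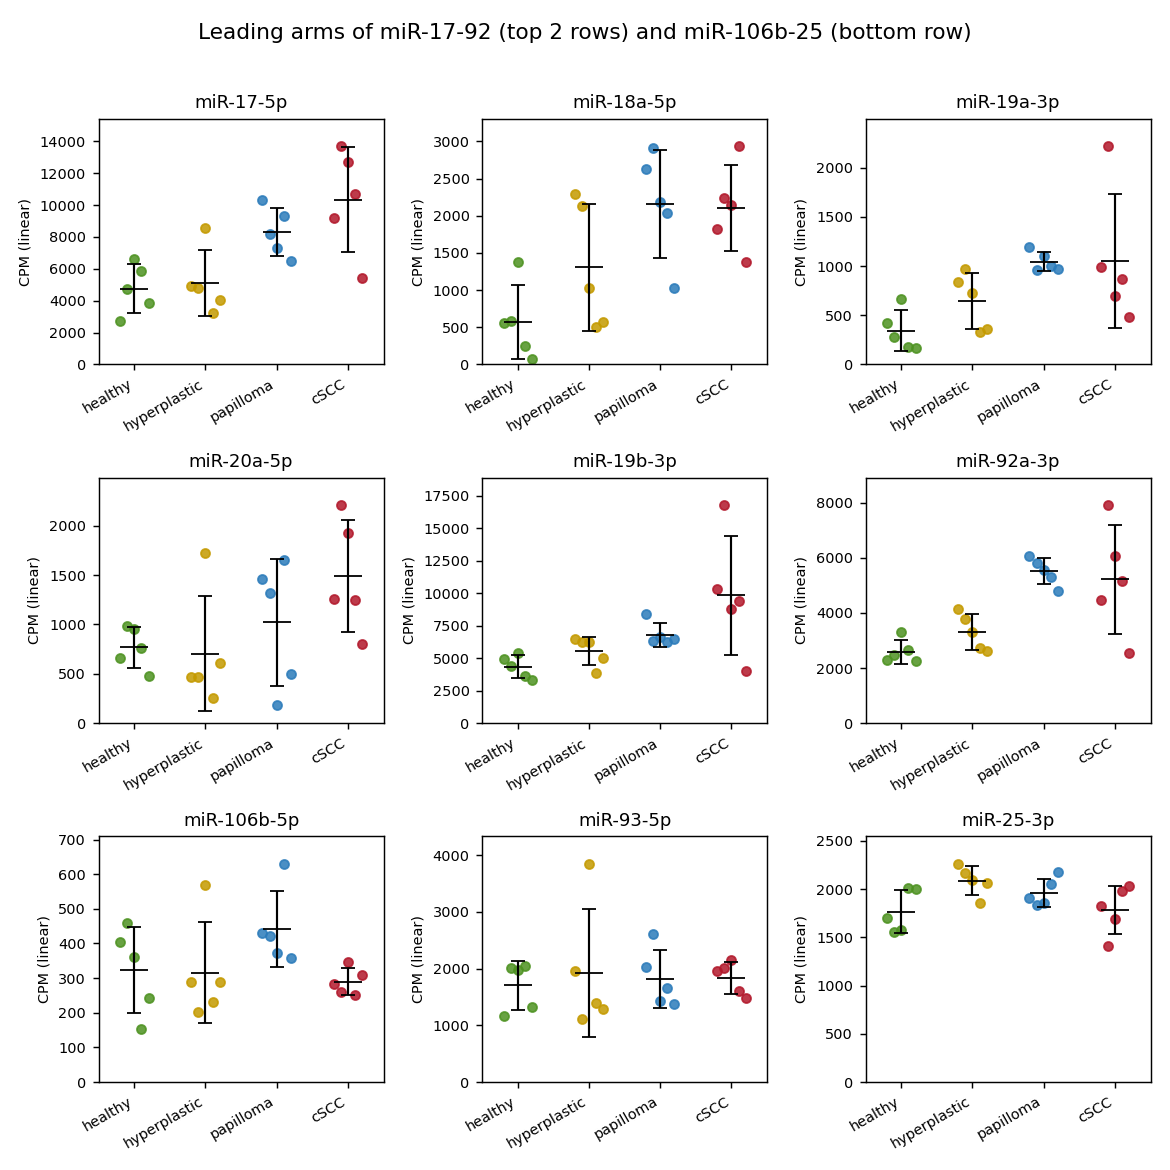
CPM on linear axes of the 9 leading arms in each of the 20 libraries (points) with mean and SD (bars), by group. miR-92a-3p and miR-19a-3p of papillomas lie above every healthy library, and miR-25-3p keeps to 1415 to 2265 CPM throughout.

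The 3 leading arms of miR-106b-25 showed no such gradient. mmu-miR-25-3p, which shares its seed with miR-92a-3p, had 1697, 1558, 1574, 2016 and 1997 CPM in healthy skin, 2265, 2165, 2092, 1855 and 2065 CPM in hyperplastic skin, 1904, 1832, 1852, 2049 and 2178 CPM in papillomas and 1822, 1415, 1693, 1981 and 2034 CPM in cSCC. All 4 groups overlapped. mmu-miR-93-5p, which has the seed of miR-17-5p, averaged 1703 ± 424 CPM in healthy skin, 1919 ± 1120 in hyperplastic skin, 1816 ± 510 in papillomas and 1842 ± 282 in cSCC (SD, n = 5 each). mmu-miR-106b-5p, of the same seed, averaged 323.8 ± 125 CPM in healthy skin, 315.8 ± 146 in hyperplastic skin, 442.7 ± 109 in papillomas and 289.9 ± 38.7 in cSCC, and its cSCC libraries, at most 347 CPM, did not overlap the papillomas, at least 358.4 CPM. Of the cluster's leading-arm counts, miR-93-5p and miR-25-3p supplied similar shares in cSCC (46.9 ± 6.53% and 45.7 ± 6.58%) and in healthy skin (44.3 ± 7.32% and 47.0 ± 7.45%), and did not differ beyond their spread.

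Comparing cSCC with healthy skin, 5 of the 6 leading arms of miR-17-92 rose and none of the 5 tested arms of miR-106b-25 passed the test. Only 11 members were abundant enough to be tested, the 9 leading arms with miR-106b-3p and miR-93-3p. By edgeR's quasi-likelihood test with Benjamini-Hochberg adjustment over 293 miRNAs, the log2 fold change was 1.88 ± 0.549 (SE) for miR-18a-5p (adjusted p = 0.0059), 1.62 ± 0.417 for miR-19a-3p (adjusted p = 0.00237) and 1.18 ± 0.260 for miR-19b-3p (adjusted p = 0.000594). It was 1.12 ± 0.280 for miR-17-5p (adjusted p = 0.0019) and 1.01 ± 0.222 for miR-92a-3p (adjusted p = 0.000597). miR-20a-5p had 0.96 ± 0.502 (adjusted p = 0.1). The 5 calls held without any 1 of the 20 libraries, with values of 0.81 to 2.48.

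These calls sit on a broad background: 36.5% of the 293 miRNAs were called higher and 25.9% lower in cSCC against healthy skin, with a median log2 fold change of 0.14 over all. The 6 leading arms of miR-17-92 had a median of 1.15. The 5 tested arms of miR-106b-25 had a median of 0.02, ranging from -0.16 ± 0.292 for miR-106b-5p to 0.71 ± 0.306 for miR-106b-3p, whose adjusted p of 0.05 (unadjusted 0.0314) did not fall below the threshold of 0.05. The intermediate values were 0.11 ± 0.287 for miR-93-5p, 0.02 ± 0.132 for miR-25-3p and -0.12 ± 0.188 for miR-93-3p.

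With the factors from 850 miRNAs all values of the same contrast were lower, and 26.2% of the 850 were called higher and 21.3% lower. Of 12 arms of miR-17-92 tested there, 3 rose, a share close to that background: miR-18a-5p (1.25, adjusted p = 0.0397), miR-18a-3p (1.36, adjusted p = 0.000579) and miR-19a-3p (0.91, adjusted p = 0.0435). miR-17-5p, miR-19b-3p and miR-92a-3p had log2 fold changes of 0.41, 0.46 and 0.29 with adjusted p of 0.258, 0.149 and 0.337. Of 6 arms of miR-106b-25, 3 fell: miR-25-3p (-0.70, adjusted p = 0.00813), miR-93-3p (-0.85, adjusted p = 0.00545) and miR-106b-5p (-0.85, adjusted p = 0.0235). The direction of miR-25-3p and miR-93-5p against healthy skin thus flips with the scaling, and neither a rise of miR-17-5p nor a fall of miR-25-3p was called under both.

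Papillomas gave the same count against healthy skin: 5 of 6 leading arms of miR-17-92 rose and 0 of 5 arms of miR-106b-25 passed in either direction. In this contrast 29% of the 293 miRNAs were called higher and 20.5% lower, and the median over all was 0.13. The edgeR log2 fold changes were 1.92 ± 0.550 for miR-18a-5p (adjusted p = 0.00724), 1.61 ± 0.417 for miR-19a-3p (adjusted p = 0.00377), 1.08 ± 0.222 for miR-92a-3p (adjusted p = 0.000528), 0.80 ± 0.278 for miR-17-5p (adjusted p = 0.0228) and 0.65 ± 0.258 for miR-19b-3p (adjusted p = 0.0402). miR-20a-5p had 0.41 ± 0.498 (adjusted p = 0.503). miR-19a-3p, miR-19b-3p and miR-92a-3p were the tested members whose groups did not overlap. How many of all 293 miRNAs lacked overlap was not counted, so this describes levels and does not set the members apart.

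The papilloma calls of miR-18a-5p, miR-19a-3p and miR-92a-3p held without any 1 library. That of miR-17-5p was lost in 3 of 20 such fits (without healthy 2, healthy 7 or papilloma 1), where its log2 fold change was as low as 0.64. The call of miR-19b-3p was lost in 15 of the 20, with values of 0.52 to 0.73 throughout, so it sits at the threshold although its libraries do not overlap. The 5 arms of miR-106b-25 lay between 0.09 for miR-93-5p and 0.48 for miR-106b-3p. With the factors from 850 miRNAs, of which 24% were called higher and 20.7% lower, 5 of 12 arms of miR-17-92 rose (miR-18a-5p, miR-18a-3p, miR-19a-5p, miR-19a-3p and miR-92a-1-5p), and miR-25-3p fell, with a log2 fold change of -0.52 (edgeR, adjusted p = 0.0466). There miR-20a-5p and all 5 tested arms of miR-106b-25 turned from a positive to a negative log2 fold change, between -0.13 and -0.52.

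**Figure D3:**
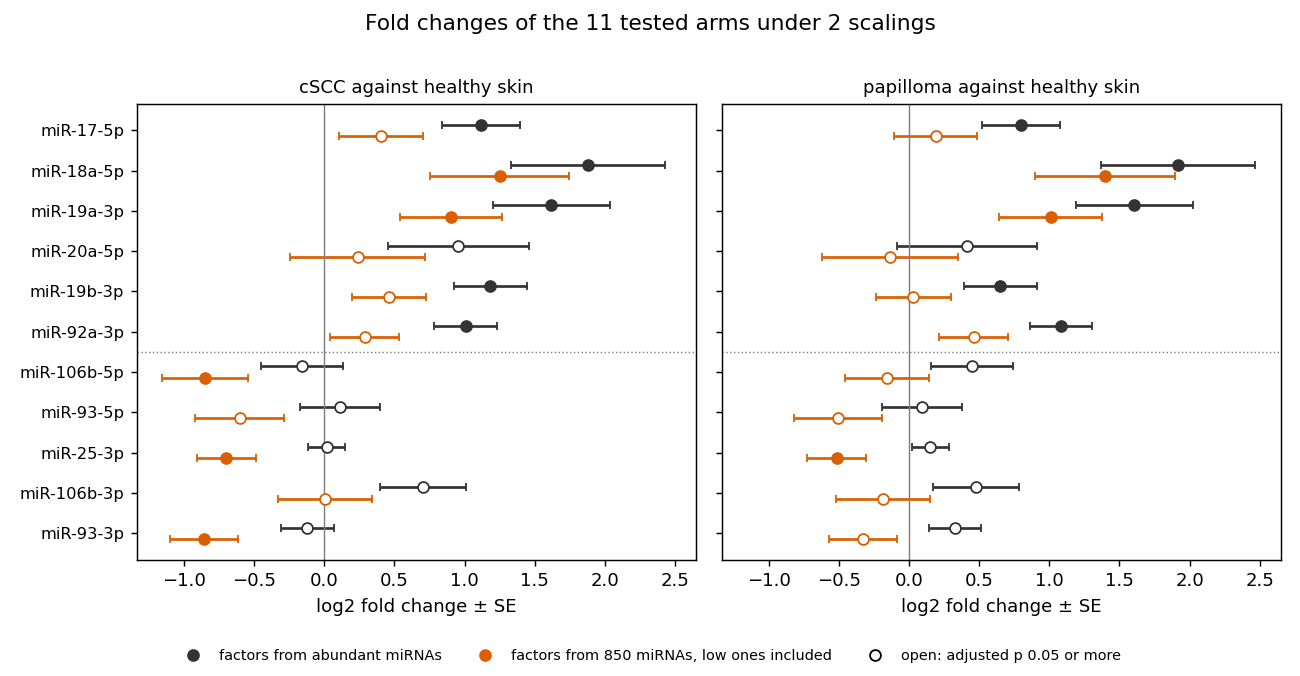
Log2 fold change ± SE of the 11 tested arms for cSCC and papilloma against healthy skin, with TMM factors from the 293 abundant miRNAs (dark) or from 850 miRNAs with low ones included (orange); filled points have an adjusted p under 0.05 and the dotted line parts the clusters. The orange points lie lower by a similar amount for every arm, as the change of factors shifts all miRNAs together.

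Hyperplastic against healthy skin, with 0% of 293 miRNAs called higher and 0% lower by edgeR, gave no call for any member. At an unadjusted p under 0.05 there were 17 higher and 18 lower miRNAs, and DESeq2 called 0. The fit on 850 miRNAs likewise called 0% higher and 0% lower. miR-18a-5p (1.19 ± 0.539, unadjusted p = 0.0386, adjusted p = 0.366) and miR-19a-3p (0.92 ± 0.410, unadjusted p = 0.0363, adjusted p = 0.366) were the members under an unadjusted 0.05. Without hyperplastic 7 and 8 their log2 fold changes were 1.61 and 1.26, both with an adjusted p of 0.0783, in a fit that called 5 of 294 miRNAs higher and 17 lower, none of them a member. In hyperplastic 1, 2 and 5 the miR-17-92 sum was 19120, 18380 and 21610 CPM, above every healthy library, whereas hyperplastic 7 and 8, at 10960 and 13250 CPM, fell among the healthy ones. The latter were set apart for their closeness to healthy skin, so this split is no separate evidence of a rise.

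Between the tumour stages no member passed the test. For cSCC against papilloma, 13% of the 293 miRNAs were called higher and 12.3% lower, and the 6 leading arms of miR-17-92 ranged from -0.08 to 0.54 in log2 fold change (median 0.16). The members nearest to a call by edgeR were miR-93-3p (-0.45 ± 0.189, adjusted p = 0.0934) and miR-106b-5p (-0.61 ± 0.294, adjusted p = 0.152). In both, the cSCC libraries did not overlap the papillomas, but the share of all 293 miRNAs without overlap was not counted. The corresponding values with the factors from 850 miRNAs were -0.53 and -0.69, without a call.

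Against hyperplastic skin, miR-17-5p (1.01 ± 0.279, adjusted p = 0.00464), miR-19b-3p (0.82 ± 0.258, adjusted p = 0.0117) and miR-92a-3p (0.66 ± 0.220, adjusted p = 0.0169) rose in cSCC, on a background of 27.6% called higher and 23.2% called lower. In papillomas miR-92a-3p alone was called (0.74 ± 0.221, adjusted p = 0.0148), where 15.7% of miRNAs were called higher and 14% lower. The fit without hyperplastic 7 and 8 called 67 of 294 miRNAs higher and 52 lower in cSCC, and 33 and 24 in papillomas. None of the 4 member calls above remained in it. The log2 fold changes of these members were 0.78, 0.67 and 0.50 in cSCC and 0.53 in papillomas, with adjusted p from 0.0594 to 0.192. With the factors from 850 miRNAs they were 0.39, 0.19 and 0.04 in cSCC and 0.21 in papillomas, also without a call, while that fit (24.5% of 850 higher and 20.5% lower in cSCC, 21.3% and 17.1% in papillomas) called miR-18a-3p higher in both tumours (0.97 in cSCC and 1.08 in papillomas), miR-19a-5p higher in papillomas (1.31) and miR-25-3p lower in both (-0.83 in cSCC and -0.65 in papillomas), with miR-93-3p (-0.81) and miR-106b-5p (-0.75) lower in cSCC. Across the 4 groups together, edgeR called 5 of the 11 tested members (miR-17-5p, miR-18a-5p, miR-19a-3p, miR-19b-3p and miR-92a-3p), against 63.5% of the 293 miRNAs.

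Ratios between members were compared within libraries, which removes the scaling. Over 16 pairs of members and 4 comparisons, 64 exact two-sided permutation tests were made, and 0 passed Benjamini-Hochberg adjustment. The smallest p that 5 against 5 libraries allow is 0.00794, and the smallest adjusted p was 0.127. Differences are therefore given by size, with unadjusted exact p, and none is a call.

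Of the partners of one seed in the 2 clusters, 2 pairs were compared. In both, the ratio of the miR-17-92 strand to its miR-106b-25 relative was higher on average in tumours than in healthy skin. Other partners, such as miR-20a-5p and miR-106b-5p, were not compared as a ratio. Against healthy skin the log2 fold changes of these 2 were 0.41 and 0.45 in papillomas and 0.96 and -0.16 in cSCC. For miR-17-5p over miR-93-5p the log2 ratio averaged 2.43 ± 0.382 in cSCC and 1.46 ± 0.217 in healthy skin (SD, n = 5 each), a difference of 0.98 (exact p = 0.00794). All 5 cSCC libraries, at 3.64 to 6.79 counts of miR-17-5p per count of miR-93-5p, lay above the healthy ones, at 2.36 to 3.35. For papilloma against healthy skin the difference was 0.76 (exact p = 0.0159), with papilloma 3 inside the healthy range.

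For miR-92a-3p over miR-25-3p the log2 ratio averaged 1.49 ± 0.227 in papillomas and 0.55 ± 0.347 in healthy skin, a difference of 0.94 without overlap (exact p = 0.00794). In cSCC it averaged 1.46 ± 0.795 and overlapped healthy skin through cSCC 6 at 0.32 (difference 0.91, exact p = 0.0556). Hyperplastic skin differed from healthy skin by 0.04 in the first ratio and 0.09 in the second, less than the SD of either group, with all 5 hyperplastic libraries.

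Within miR-17-92 the closest sisters differed in ratio between groups. miR-19a-3p per miR-19b-3p was 0.141 to 0.166 in papillomas and 0.0489 to 0.123 in healthy skin (log2 difference 1.14, exact p = 0.00794), and in cSCC it was 0.0795 to 0.132, again below every papilloma (log2 difference -0.58 for cSCC against papilloma, exact p = 0.00794). The 2 strands differ by 1 base, and how reads that match both were assigned is not given in the sources used here. miR-18a-5p over miR-17-5p was higher in papillomas than in healthy skin by 1.54 in log2 (exact p = 0.0397), with overlap. In healthy skin this ratio ran from -5.63 to -2.26 in log2, the widest spread of the within-cluster pairs there.

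miR-92a-3p over miR-17-5p was lower in cSCC than in papillomas by -0.43 in log2 (exact p = 0.0159), with averages of -1.01 ± 0.124 and -0.58 ± 0.195. In miR-106b-25, miR-93-5p over miR-106b-5p was higher in cSCC than in papillomas by 0.64 (exact p = 0.0159) and miR-25-3p over miR-106b-5p by 0.45 (exact p = 0.0476), both with overlap. These 2 ratios share miR-106b-5p, whose level in papillomas was the highest of the 4 groups.

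**Figure D4:**
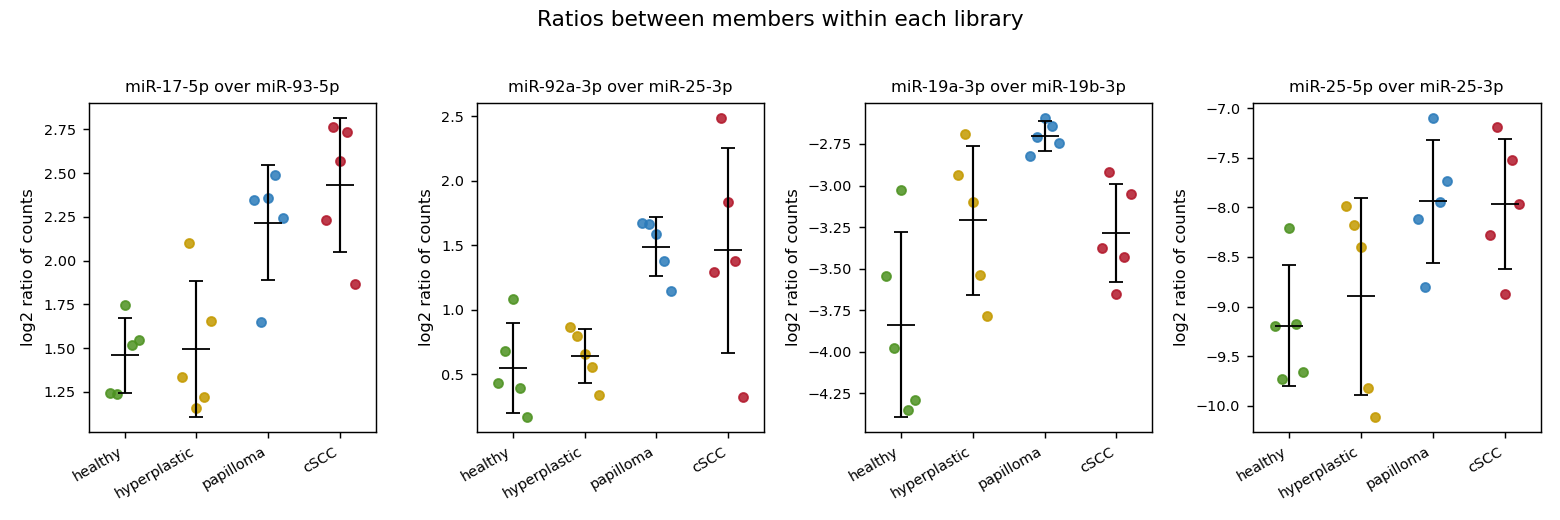
Log2 ratio of counts for 4 pairs of members in each library (points) with mean and SD (bars), by group. miR-17-5p over miR-93-5p of all 5 cSCC lies above healthy skin (2.43 against 1.46 on average), and miR-19a-3p over miR-19b-3p peaks in papillomas.

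Most other arms of the hairpins were scarce, with miR-106b-3p as the exception. A hairpin carries both arms, as in miR-25, where capitals mark miR-25-5p and then miR-25-3p within the RefSeq precursor (GRCm38.p6):
miR-25 precursor: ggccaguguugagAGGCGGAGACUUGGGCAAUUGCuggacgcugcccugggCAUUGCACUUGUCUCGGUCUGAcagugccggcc
Of the 11 further members, miR-106b-3p averaged 301.8 CPM over the 20 libraries and miR-93-3p 66.16 CPM. The 7 passenger arms miR-17-3p, miR-18a-3p, miR-19a-5p, miR-20a-3p, miR-19b-1-5p, miR-92a-1-5p and miR-25-5p averaged 4.278 to 40.37 CPM and were too low for the test on 293 miRNAs. The 2 arms of the X-linked copies, miR-92a-2-5p and miR-19b-2-5p, had 0 to 10 and 0 to 9 counts in a library, too few for either test.

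For miR-106b the 2 arms were close in abundance. The 3p arm averaged 237.4 ± 90.9 CPM in healthy skin, 251.2 ± 51.9 in hyperplastic skin, 330.9 ± 39.9 in papillomas and 387.6 ± 183 in cSCC. Its means rose in that order, but cSCC overlapped every other group. The 5p arm had 289.9 ± 38.7 CPM in cSCC and 323.8 ± 125 CPM in healthy skin. The cluster's sums, shares and quotient leave out the 3p arm. With filterByExpr and abundant factors, edgeR called it higher in cSCC against healthy skin (0.71, adjusted p = 0.0445), among 451 of 850 miRNAs called higher. The log2 ratio of 3p over 5p ran from -0.70 to 1.22 in cSCC and from -1.68 to 1.15 in healthy skin, with a difference of 0.71 (exact p = 0.27).

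miR-18a-3p separated both tumour groups from both skin groups. It stood at 10.96, 21.78, 21.62, 12.38 and 8.078 CPM in healthy skin, 23.00, 25.45, 31.55, 13.55 and 9.933 CPM in hyperplastic skin, 61.42, 61.31, 67.89, 59.44 and 68.65 CPM in papillomas and 71.13, 57.10, 64.49, 59.53 and 55.18 CPM in cSCC. Both tumour groups lay above both skin groups without overlap, and the share of all miRNAs with such a gap was not counted. Its counts, from 31 to 152 in a library, summed to 301 in healthy skin, 518 in hyperplastic skin, 586 in papillomas and 587 in cSCC.

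In the fit on 850 miRNAs miR-18a-3p was called for papilloma (1.46 ± 0.296, adjusted p = 0.000486) as for cSCC. miR-92a-1-5p rose in papillomas (1.80 ± 0.375, adjusted p = 0.000624; 30.96 ± 13.5 CPM against 5.777 ± 3.39 in healthy skin) and had 0.88 ± 0.375 in cSCC (adjusted p = 0.0551). miR-19a-5p rose in papillomas (1.42 ± 0.509, adjusted p = 0.027) on 3 to 21 counts a library. The summed CPM of low-count miRNAs moved with these arms (2017 in cSCC, 2894 in papillomas and 947.6 in healthy skin), and its part in their CPM was not tested. The ratio of miR-92a-1-5p to miR-92a-3p was higher in papillomas than in healthy skin by 1.39 in log2 (exact p = 0.0238), with overlap. The ratio of miR-25-5p to miR-25-3p, 7 to 44 counts of the 5p arm, was higher in papillomas than in healthy skin by 1.25 in log2 (exact p = 0.0159) and in cSCC by 1.23 (exact p = 0.0238). The 5p counts summed to 62 in healthy skin, 71 in papillomas and 68 in cSCC, against 36672, 18221 and 16908 for the 3p arm. A ratio keeps any failure of its low-count arm to follow depth, and the part of this in both ratios was not tested.

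**Figure D5:**
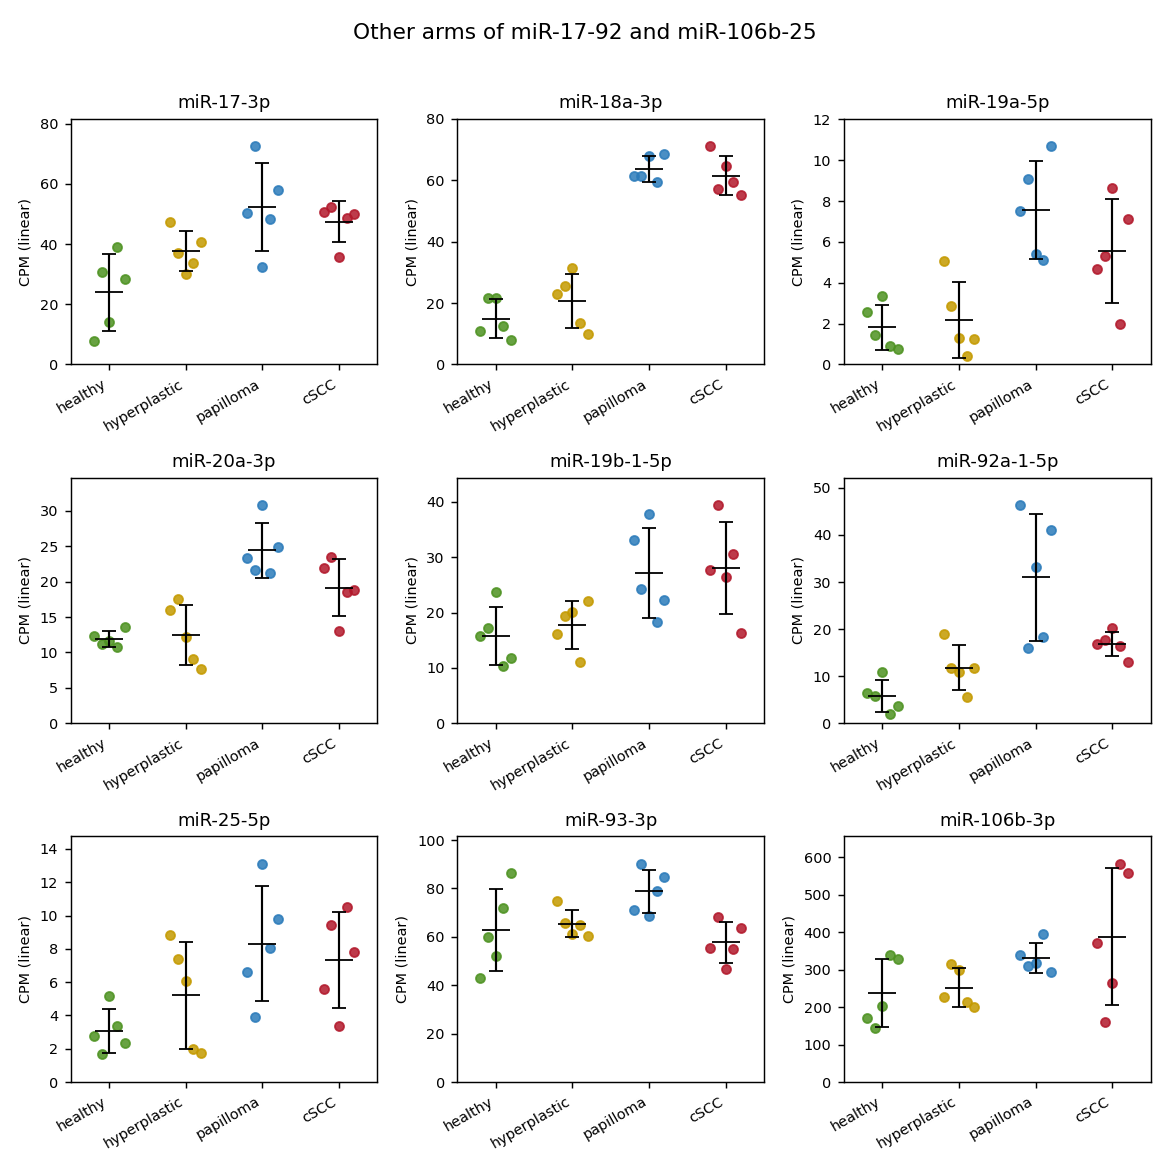
CPM on linear axes of the 9 other arms from the 2 clusters' own loci in each library (points) with mean and SD (bars), by group. miR-18a-3p is at 55.18 to 71.13 CPM in all tumours and at most 31.55 CPM in all skin libraries.

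The X-linked paralogue and other miRNAs of the same seeds were compared as the nearest relatives. Of 8 listed arms of miR-106a-363, 3 were abundant enough for the test and 1, miR-18b-5p, rose in both tumours: 370.5 ± 77.2 CPM in cSCC and 423.4 ± 172 CPM in papillomas, against 149.7 ± 117 in the healthy group (SD, n = 5 each; edgeR, 1.31 ± 0.522, adjusted p = 0.0352, and 1.5 ± 0.524, adjusted p = 0.0234). miR-18b-5p differs from miR-18a-5p by 2 bases. miR-106a-5p, 1 base from miR-17-5p, had 70.08 ± 22.9 CPM in cSCC against 72.54 ± 32.0 in healthy libraries (log2 fold change -0.05 ± 0.278, adjusted p = 0.885), and miR-20b-5p had 0.33 ± 0.270 (adjusted p = 0.279). miR-32-5p, with the seed of miR-92a-3p and a locus of its own, had -0.09 ± 0.208 in cSCC (adjusted p = 0.715). With the factors from 850 miRNAs, miR-18b-5p was not called (0.68, adjusted p = 0.241, in cSCC), and miR-106a-5p (-0.77) and miR-32-5p (-0.81) fell.

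By the root mean square difference of centred log2 CPM over the 20 libraries, the 5 miRNAs closest to the mean course of miR-17-92 were miR-421-3p (0.40), miR-423-3p (0.40), miR-15b-5p (0.44), miR-200a-5p (0.47) and miR-183-5p (0.47), where the median of 282 miRNAs was 0.91. The closest to miR-106b-25 were miR-148b-3p (0.29), miR-15a-5p (0.30), let-7f-5p (0.30), miR-361-5p (0.31) and miR-24-3p (0.31), against a median of 0.65. The own leading arms of miR-17-92 lay at 0.303 to 0.769 from its mean. Among them miR-18a-5p (0.769) and miR-20a-5p (0.731) were farther from it than the 5 listed miRNAs. Those of miR-106b-25 lay at 0.276 to 0.307.

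Markers of other cell types moved between the groups as well. Summed over 6 listed leukocyte miRNAs, the level was 59650 to 145700 CPM in cSCC, 15880 to 95560 CPM in papillomas and 14750 to 25540 CPM in healthy skin, mostly miR-223-3p, and 2 of 5 tested rose and 2 fell in cSCC (miR-223-3p by a log2 of 2.64, miR-150-5p by -1.42). cSCC 6, with the lowest miR-17-92 of the tumours, had the highest leukocyte sum, and cSCC 2, with the highest miR-17-92 of all, the next highest at 115900 CPM. Summed over 4 erythroid miRNAs, the level was 3853 to 9947 CPM in cSCC, 2899 to 13830 CPM in papillomas and 1829 to 5299 CPM in healthy skin, and of 3 tested, miR-144-5p was called higher (1.80, adjusted p = 0.00551) and miR-144-3p had 1.12 (adjusted p = 0.12) in cSCC. The 4 striated muscle miRNAs all fell in cSCC (miR-133a-3p by -3.86, miR-133b-3p by -3.96), their sum being 2074 to 4116 CPM in cSCC, 2757 to 9711 CPM in papillomas and 14590 to 59820 CPM in healthy skin, and both smooth muscle miRNAs fell too (miR-145-5p by -1.36, miR-143-3p by -1.59).

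Of 7 keratinocyte miRNAs, with sums of 85190 to 184000 CPM in cSCC, 169600 to 221100 CPM in papillomas and 127300 to 178600 CPM in healthy skin, 2 fell in cSCC (miR-203-3p by -1.07, miR-200a-3p by -0.57). Endothelial miR-126-5p and miR-126-3p had -0.37 and -0.58 without a call (sums 12900 to 24260 CPM in cSCC, 20470 to 30590 in healthy skin), and of the fibroblast pair miR-214-3p rose by 0.60 while miR-199a-3p had -0.48 (sums 2264 to 6011 CPM in cSCC, 3971 to 7955 in healthy skin). In papillomas against healthy skin, 1 of 5 leukocyte miRNAs (miR-223-3p, 1.17) and 2 of 3 erythroid miRNAs were higher, the 4 striated and 2 smooth muscle miRNAs and 1 of 2 endothelial miRNAs were lower, and 0 of 7 keratinocyte miRNAs passed. With the second scaling (filterByExpr) the marker calls against healthy skin differed. In cSCC 4 of 7 keratinocyte, 2 of 6 leukocyte and 1 of 4 erythroid miRNAs were lower, and 1 leukocyte miRNA was higher. In papillomas 3 of 7 keratinocyte and 3 of 6 leukocyte miRNAs were lower, and 0 of 4 erythroid miRNAs passed. No marker was higher in papillomas. In both tumours 2 of 2 endothelial and 1 of 2 fibroblast miRNAs were lower, as were all muscle miRNAs. No listed marker was at 0 in any group. The part of these cell types in the rise of miR-17-92 was not tested.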

How the data were processed

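Small RNA of 20 mouse skin libraries, 5 per group, was sequenced on the SOLiD platform after total RNA extraction, NEBNext library preparation and gel size selection, per the labels' protocols. The authors deposited read counts per small RNA feature, not normalized, with coordinates on mm9, the build in the submitters' processing notes. The sources used here name no aligner or counter, and how reads with several matches were treated is not given in them.

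Groups came from the labels. The counts of 1137 mature miRNAs were analysed in R 4.3.3 with edgeR 4.0.16. miRNAs averaging at least 50 CPM over the 20 libraries were kept (293), TMM factors were taken from them, and a quasi-likelihood fit with a group term over all 20 libraries gave two-sided tests, Benjamini-Hochberg adjusted over the 293 (threshold 0.05). All adjusted p-values printed are from edgeR. The earlier account of these data kept miRNAs by filterByExpr; because low-count miRNAs did not scale with depth there, that fit (850 miRNAs) is given beside the main values. Ratios of members used log2 of counts with 0.5 added and exact two-sided permutation tests in Python 3.11.15. Mature counts per library ran from 1060615 to 6904298. Alternatives were other filters and scalings, DESeq2 1.42.0, fits of only the groups compared, a replicate block and leaving out libraries. The scripts were tested on simulated data. Sequences are RefSeq's (GRCm38.p6). Text names the 9 leading arms in every set, other arms by level and count, the 2 members of each marker list with the smallest adjusted p in cSCC against healthy skin, and the 5 miRNAs closest in course to each cluster. Members and lists were chosen with earlier results of these data known.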

Additional observations from a re-analysis of the deposited data

Results flagged for a closer look

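In 36 sets of 5 libraries (9 leading arms in 4 groups), 4 held 1 library far from the other 4 by Dixon's criterion for 5 values (0.71), where chance gives about 1 in 20. mmu-miR-20a-5p stood at 1718 CPM in hyperplastic 5, against 255.6 to 609.7 CPM in the other hyperplastic libraries. mmu-miR-106b-5p stood at 568.3 CPM in the same library, against 203.6 to 288.8 CPM in the others. mmu-miR-19b-3p stood at 8424 CPM in papilloma 1, against 6237 to 6631 CPM in the other papillomas. mmu-miR-106b-5p stood at 630.5 CPM in papilloma 5, against 358.4 to 429.1 CPM in the others.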

How the results depend on the processing

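The 5 members called higher in cSCC against healthy skin numbered 2 among the 11 with factors from 850 miRNAs (filterByExpr) and 0 with no low-count filter. Those called lower numbered 3 and 4. Over all miRNAs these fits called 223 of 850 and 152 of 1137 higher, and 181 and 218 lower. In papilloma against healthy skin the 5 higher became 2 and 0, with 1 and 2 lower. Over all miRNAs these fits called 204 of 850 and 96 of 1137 higher, and 176 and 211 lower. With DESeq2 size factors 3 members were higher, among 70 of all 293 miRNAs. With library sizes without the top 5, 8 members were higher, among 116 of 293. In cSCC against hyperplastic skin the 3 higher became 0 with filterByExpr, no filter, total counts, library sizes without the top 5 and without hyperplastic 7 and 8. They became 1 in the fit of only the groups compared, and 3, 4, 2 and 2 were lower under the first 4. Over all miRNAs, in that order, 208 of 850, 140 of 1137, 52 of 293, 60 of 293, 67 of 294 and 79 of 298 were higher. Lower under the first 4 were 174, 216, 124 and 107. In papilloma against hyperplastic skin the 1 higher became 0 with filterByExpr, no filter, total counts, the replicate block and without hyperplastic 7 and 8. It became 2 with filterByExpr and factors from abundant miRNAs, and 1 and 2 were lower under filterByExpr and no filter. Over all miRNAs, in that order, 181 of 850, 87 of 1137, 33 of 293, 29 of 293, 33 of 294 and 320 of 850 were higher. Lower under filterByExpr and no filter were 145 and 206. In cSCC against papilloma 3 members were lower with total counts and with library sizes without the top 5, among 67 and 91 of all 293 miRNAs.

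Reversed log2 fold changes against healthy skin with filterByExpr were, for cSCC, -0.70 (miR-25-3p) and -0.60 (miR-93-5p), and for papilloma -0.52 (miR-25-3p), -0.50 (miR-93-5p), -0.13 (miR-20a-5p), -0.155 (miR-106b-5p), -0.18 (miR-106b-3p) and -0.33 (miR-93-3p). With no filter they were, for cSCC, -0.98 (miR-25-3p), -0.88 (miR-93-5p), -0.048 (miR-20a-5p) and -0.26 (miR-106b-3p), and for papilloma -0.16 (miR-17-5p), -0.35 (miR-19b-3p), -0.89 (miR-25-3p), -0.86 (miR-93-5p), -0.46 (miR-20a-5p), -0.53 (miR-106b-5p), -0.54 (miR-106b-3p) and -0.70 (miR-93-3p). Against hyperplastic skin, no filter gave -0.13 (miR-19b-3p) and -0.28 (miR-92a-3p) for cSCC and -0.21 (miR-17-5p) and -0.20 (miR-92a-3p) for papilloma. For miR-25-3p in cSCC against healthy skin, close to 0, the value was -0.094 with DESeq2 and its size factors, -0.11 without the top 5, -0.14 in the 2-group fit, -0.335 with total counts, -0.016 with the replicate block and -0.035 without hyperplastic 7 and 8. For miR-93-5p it was -0.028, -0.056 and -0.26 without the top 5, in the 2-group fit and with total counts, and in papilloma against healthy skin -0.035 with DESeq2 and its size factors, -0.013 with the block and -0.005 without hyperplastic 7 and 8. The cause was not tested.

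Without 1 library, members called higher numbered 5 to 6 in cSCC and 3 to 5 in papilloma against healthy skin, 2 to 4 in cSCC and 0 to 3 in papilloma against hyperplastic skin, and 0 to 1 in cSCC against papilloma. Log2 fold changes in cSCC against healthy skin ran from -0.125 to 0.091 (miR-25-3p), -0.26 to 0.021 (miR-93-3p) and -0.036 to 0.17 (miR-93-5p), and in papilloma against healthy skin from -0.072 to 0.18 (miR-93-5p). Against hyperplastic skin, the call of miR-19b-3p in cSCC was lost without cSCC 2, that of miR-92a-3p in cSCC without hyperplastic 7, hyperplastic 8 or cSCC 2, and that of miR-92a-3p in papillomas without hyperplastic 7, hyperplastic 8 or papilloma 4. Of 930 alternatives for 31 fold changes, 787 kept direction and side of the threshold, 64 lost a call, 24 gained one and 55 reversed. No ratio passed adjustment to begin with, so the 143 alternatives for 13 ratios could lose no call; none reversed a direction.

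Over all miRNAs, calls higher and lower in cSCC against healthy skin numbered 107 and 76, but 152 and 218 with no filter, 451 and 102 with filterByExpr and abundant factors, and 72 and 112 with total counts. In papilloma against healthy skin they numbered 85 and 60, but 96 and 211, 426 and 73, and 116 and 38 without the top 5. In hyperplastic against healthy skin 0 and 0 became 5 and 17 without hyperplastic 7 and 8, 3 and 0 with the replicate block, 4 and 0 without healthy 4 and 0 and 2 without hyperplastic 7. In cSCC against papilloma 38 and 36 became 59 and 21 with no filter, 25 and 67 with total counts and 21 and 91 without the top 5. In cSCC against hyperplastic skin 81 and 68 became 140 and 216 with no filter, 369 and 82 with abundant factors, 52 and 124 with total counts and 60 and 107 without the top 5. In papilloma against hyperplastic skin 46 and 41 became 87 and 206, 320 and 48, and 33 and 56.

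Whether replicate numbers pair the libraries was not settled. Of 17 same-numbered pairs, 7 correlated above 0.1 (-0.23 to 0.41), and pairs with different numbers were not compared. With the replicate block, 1 member was called in hyperplastic against healthy skin, miR-18a-5p at 1.98. Some passenger arms rest on few counts in every group, such as miR-19a-5p (7 to 21 in papillomas and 3 to 13 in healthy skin) and miR-25-5p (9 to 19 in papillomas and 7 to 17 in healthy skin), which limits their precision.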
